A study of Rattus norvegicus with 4 samples.

Results

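CD44 ChIP-seq peaks at the ends of rat chromosomes 1 to 20 were examined in nucleus pulposus cells, which fill the soft core of the intervertebral disc. An end window was the outer 2 Mb of a chromosome. A peak belonged to it when it started within the first 2000000 bases, or when it stopped within 2000000 bases of the last peak end that either list holds for that chromosome. The 40 windows held 7824 of the 289279 peaks listed for cells in serum and 12146 of the 409937 peaks listed for starved cells, which is 19970 of 699216 in both lists. Each window was set beside the next 2 Mb inward, which held 6708 serum and 11740 starved peaks. The remaining 2459 Mb, more than 4 Mb from any end and called the interior here, held 244455 and 355227.

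The study has 4 libraries. In the serum condition the cells were grown in DMEM-F12 with 10% fetal bovine serum, and in the starved condition they were kept with 0.1%. Each condition has 1 library precipitated with the CD44 antibody ab157107 of Abcam and 1 input library, DNA of the same kind of cells that was not precipitated. The authors deposited 1 peak list per condition, so no replicate stands behind any value, no test between conditions was possible, and every difference describes these libraries. Intervals are exact 95% intervals for counting error only, and peaks that lie side by side are not independent of each other.

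CD44 is a cell-surface receptor for hyaluronan, the long sugar polymer of the disc matrix. Its intracellular part can be cut free and has been described in the nucleus, where it takes part in transcription. The ends of chromosomes carry telomere repeats, and the DNA just inside them is often rich in repeated and duplicated sequence that short reads place poorly. Many rat chromosomes have their centromere close to one end, so the end windows also include sequence next to centromeres. The low-coordinate end is called the start here and the high-coordinate end the far end. A genome sequence and gene annotation of Rnor_6.0, the build of the files, were not used here, so no sequence, gene, exon or repeat is given for any peak.

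A peak carries the authors' pileup (the fragments stacked at its highest point) and their fold enrichment over local background. The background of each peak was recomputed from these values. The lowest background was 1.502 fragments in serum and 0.0996 after starvation, and the median pileup was 7 and 2. A serum peak at the lowest background needed a pileup of 8 fragments to reach a q-value of 0.05, and a starved peak needed 2. Fold values and numbers of peaks of the lists are therefore not on 1 scale, and each list is compared with itself. Many listed peaks did not reach that q-value: 6126 of 7824 serum and 5942 of 12146 starved end peaks lay above 0.05. In the interior 196627 of 244455 serum and 170889 of 355227 starved peaks did. Values given for all peaks include them.

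Over all listed peaks, serum peaks were denser in the end windows than next to them, and this came from the far ends. The end windows held 97.8 peaks per Mb (95.6 to 99.99) and the inward windows 83.9 (81.9 to 85.9), a ratio of 1.17 (1.13 to 1.21). At the far ends 4047 peaks stood against 2938, a ratio of 1.38 (1.31 to 1.45). At the starts the counts were 3777 and 3770, a ratio of 1.00 (0.957 to 1.05). The split into starts and far ends was chosen after the values were seen. The interior held 99.4 peaks per Mb, so the ends of both kinds together lay at 0.984 times the interior (0.9616 to 1.006). The far end windows lay at 1.06 times the interior of their side (1.02 to 1.09) and the far inward windows at 0.767 times (0.739 to 0.795), so the inward window was the one farther from the interior. Beyond 2.5 Mb from the far ends every bin of 250 kb up to 8 Mb held 56.4 to 82.4 serum peaks per Mb, so the low stretch ran on past the inward window. With 1 Mb windows the pooled ratio was 0.977 (0.934 to 1.02). Among serum peaks with a q-value of up to 0.05 the pooled ratio was 1.29 (1.20 to 1.38). It was then 1.13 at the starts (1.03 to 1.25) and 1.51 at the far ends (1.35 to 1.69).

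Starved peaks at the ends differed little in density from their surroundings. The end windows held 151.8 peaks per Mb (149.1 to 154.5), the inward windows 146.8 (144.1 to 149.4) and the interior 144.5, a ratio of 1.03 (1.009 to 1.06) to the inward windows and 1.05 (1.03 to 1.07) to the interior. The starts held 6204 peaks against 6182 inward (1.00, 0.969 to 1.04) and the far ends 5942 against 5558 (1.07, 1.03 to 1.11). Among peaks whose background did not exceed 2 times the lowest, the pooled starved ratio was 0.950 (0.922 to 0.980), below 1.

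**Figure D1:**
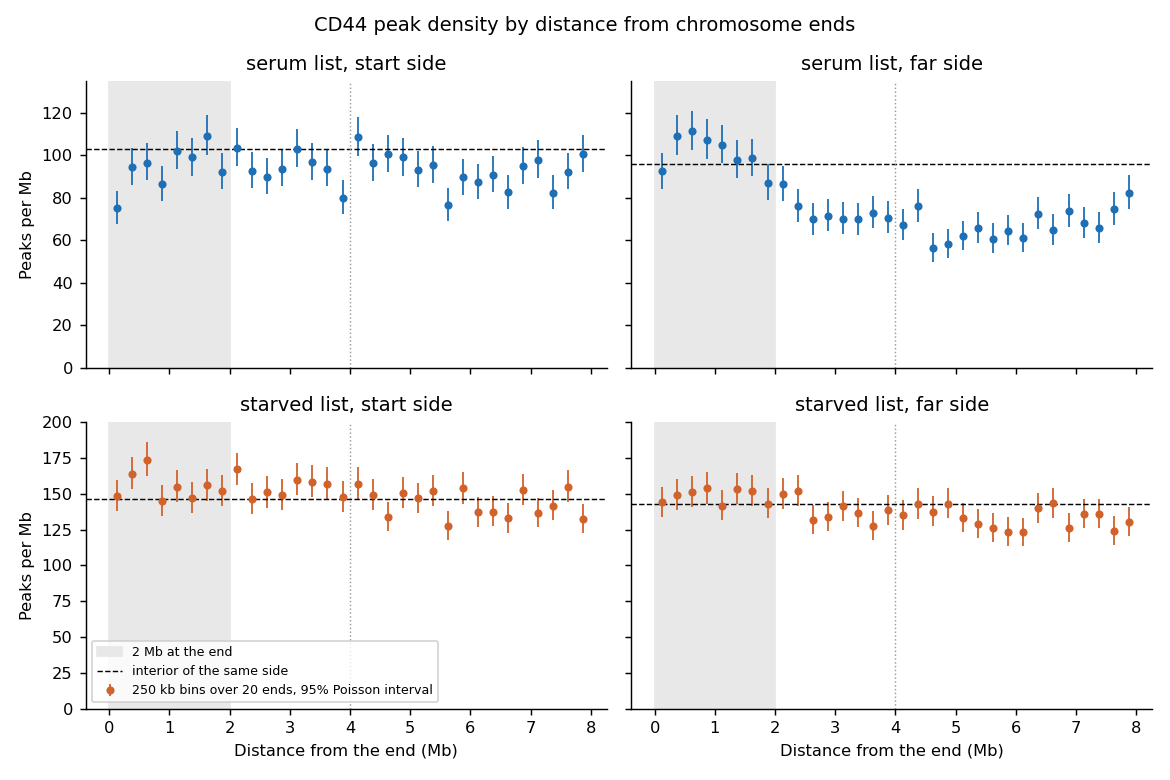
CD44 peaks per Mb against the distance in Mb from the chromosome end, in 250 kb bins pooled over 20 starts (left) or 20 far ends (right), serum list above and starved list below. Bars are 95% Poisson intervals for counting error, grey marks the outer 2 Mb, the dotted line stands at 4 Mb and the dashed line is the interior of the same side; at the serum far ends all points beyond 2 Mb lie below the dashed line, with a lowest value of 56.4 peaks per Mb.

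The change with distance was gradual at the limit of 2 Mb. The last 100 kb inside it held 182 serum peaks at the starts and 168 at the far ends, and the first 100 kb outside held 213 and 175. The starved counts inside were 331 and 303 and those outside 326 and 316. Median fold enrichment was 2.66 on both sides of the limit at the serum starts and 2.56 inside against 2.55 outside at the starved starts. The first 250 kb of the starts held 75.2 serum peaks per Mb (67.8 to 83.2), against 94.6 (86.3 to 103) in the next 250 kb.

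Single ends varied widely among serum peaks and little among starved ones. Serum counts per end ran from 54 to 318 with a median of 198, and the next 2 Mb held 22 to 398 with a median of 162.5. Starved counts ran from 212 to 458 with a median of 298.5. The coefficient of variation over the 40 ends was 37.8% for serum counts and 14.6% for starved counts. The serum end exceeded its inward neighbour at 17 of 20 far ends and at 9 of 20 starts. The starved end did so at 15 of 20 far ends and 13 of 20 starts, with 1 start equal.

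The start of chromosome 11 held the most serum peaks with 318, followed by the far end of chromosome 16 with 308 and the start of chromosome 2 with 305. The fewest were at the start of chromosome 17 with 54, the far end of chromosome 4 with 76 and the far end of chromosome 5 with 80. Among starved peaks the starts of chromosomes 2, 5 and 7 led with 458, 388 and 383 peaks. The starts of chromosomes 13 and 9 held the fewest with 212 and 227, followed by the far ends of chromosomes 4 and 15 with 250 each. The start of chromosome 2 was thus among the 3 fullest ends of both lists, and the far end of chromosome 4 among the emptiest of both.

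Serum ratios of end to inward windows ran from 0.415 to 5.09. The far end of chromosome 10 held 112 peaks against 22 (5.09, 3.20 to 8.45), the start of chromosome 3 held 176 against 47 (3.75, 2.70 to 5.28) and the far end of chromosome 12 held 104 against 38 (2.74, 1.87 to 4.08). Each of these ratios set an end with fewer serum peaks than the median end over a neighbour with very few. At the other extreme the start of chromosome 19 held 165 against 398 (0.415, 0.344 to 0.498), the start of chromosome 13 held 125 against 233 (0.537, 0.428 to 0.670) and the start of chromosome 14 held 108 against 167 (0.647, 0.503 to 0.829). The counting interval lay above 1 at 19 ends and below 1 at 7.

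Starved ratios stayed between 0.602 and 1.26. The far end of chromosome 3 led with 321 peaks against 255 (1.26, 1.07 to 1.49), followed by the far end of chromosome 5 with 305 against 246 (1.24, 1.05 to 1.47) and the far end of chromosome 9 with 358 against 289 (1.24, 1.06 to 1.45). The lowest were the starts of chromosome 13 with 212 against 352 (0.602, 0.506 to 0.716), chromosome 9 with 227 against 326 (0.696, 0.585 to 0.827) and chromosome 12 with 295 against 347 (0.850, 0.725 to 0.996). The start of chromosome 13 was among the 3 lowest in both lists. The counting interval lay above 1 at 7 ends and below 1 at 3.

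**Figure D2:**
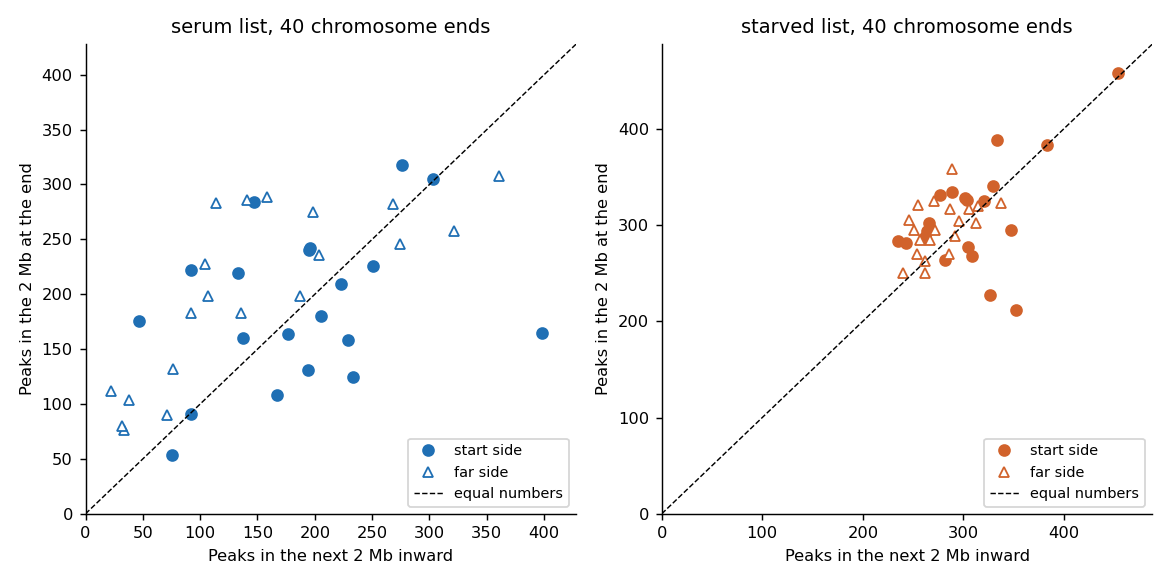
Peaks in the outer 2 Mb (vertical) against peaks in the next 2 Mb inward (horizontal) for each of the 40 ends, serum list on the left and starved list on the right, with filled circles for starts, open triangles for far ends and a dashed line where both numbers are equal. Serum points scatter widely, with 17 of 20 triangles above the line, while starved points lie together near the line.

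As a description over the 40 ends, which share 1 library per list, the counts of the lists had a Pearson correlation of 0.41 and a Spearman correlation of 0.35. The counts of strong peaks had 0.70 and 0.59, and the percent of peaks with a raised background 0.89 and 0.87. At the 20 far ends the serum count fell as the median background of its peaks rose (Pearson -0.70, Spearman -0.82). The 20 starts had no such order (0.30 and -0.16). In the starved list the same coefficients were -0.028 and 0.24 at the far ends and 0.66 and 0.48 at the starts. By these coefficients the lists were more alike in background than in number of peaks.

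A background of more than 2 times the lowest of its list is called raised here. MACS2 takes the background from the control signal around a peak, so a raised value means more control fragments there than the genome-wide level. At the serum ends 1283 of 7824 peaks had a raised background, 16.4% (15.6 to 17.2). Over all serum peaks of chromosomes 1 to 20 the share was 9.33%. It was 10.2% in the inward windows and 9.08% in the interior. At the starved ends 3904 of 12146 peaks had one, 32.1% (31.3 to 33.0), against 25.4% over all starved peaks, 26.1% inward and 25.2% in the interior.

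Pooled over the ends, the share was higher at the starts than at the far ends, and in the serum list both exceeded their inward windows. By chromosome, the start had the higher share on 13 of 20 in the serum list and 15 of 20 in the starved list. The serum share of an end exceeded that of its inward window at 14 of 20 starts and 14 of 20 far ends. The serum share was 23.4% at the starts (22.1 to 24.8) against 12.4% inward, and 9.83% at the far ends (8.93 to 10.8) against 7.39% (6.47 to 8.39). The serum interior had 9.42% on the start side and 8.70% on the far side, so the far ends lay little above it. As numbers of raised peaks, serum ends exceeded inward windows 1.90 times at the starts (1.69 to 2.12) and 1.83 times at the far ends (1.55 to 2.17). Against the interior of their side the ratio was 2.28 at the starts (2.13 to 2.44) and 1.19 at the far ends (1.08 to 1.32). The far inward windows lay at 0.651 times the interior (0.566 to 0.744). The starved share was 38.8% at the starts (37.6 to 40.02) against 28.2%, and 25.2% at the far ends against 23.8%. The starved interior had 25.3% on the start side and 25.1% on the far side. By distance, the first 3 bins of 250 kb at the serum starts had 38.6%, 37.4% and 36.7%, the fourth 23.6% and the last before 2 Mb 10.4%. At the starved starts the first 3 had 48.6%, 47.1% and 48.5%, the fourth 36% and the last 27.0%. In both conditions the share was thus highest in the first 750 kb of the low-coordinate ends. Serum peaks with a background above 5 times the lowest were 3.41 times as many at the starts as next to them (341 against 100).

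The starts of chromosomes 2, 7, 12 and 16 carried much of this. These 4 windows were picked after the values were seen, for their raised background, and what follows about their background is a description. They held 884 serum peaks, of which 56.0% had a raised background (52.7 to 59.3), with a median of 2.53 times the lowest. The other 16 starts held 2893 peaks with 13.5% raised (12.3 to 14.8). Together with the start of chromosome 1, the 4 windows held 539 of the 1283 raised peaks of all 40 serum ends, 42.0%. The same 4 windows held 1470 starved peaks with 58.3% raised, against 32.7% at the other 16 starts. Chromosomes 12 and 16 did not lead there: their starts had 46.1% and 43.4%, below the starts of chromosomes 17 (59.3%) and 4 (54.9%) and the far end of chromosome 10 (47.4%). The serum density at the 4 starts was 1.077 times that of their inward windows (0.978 to 1.19), and at the other 16 it was 0.981 times (0.932 to 1.03).

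**Figure D3:**
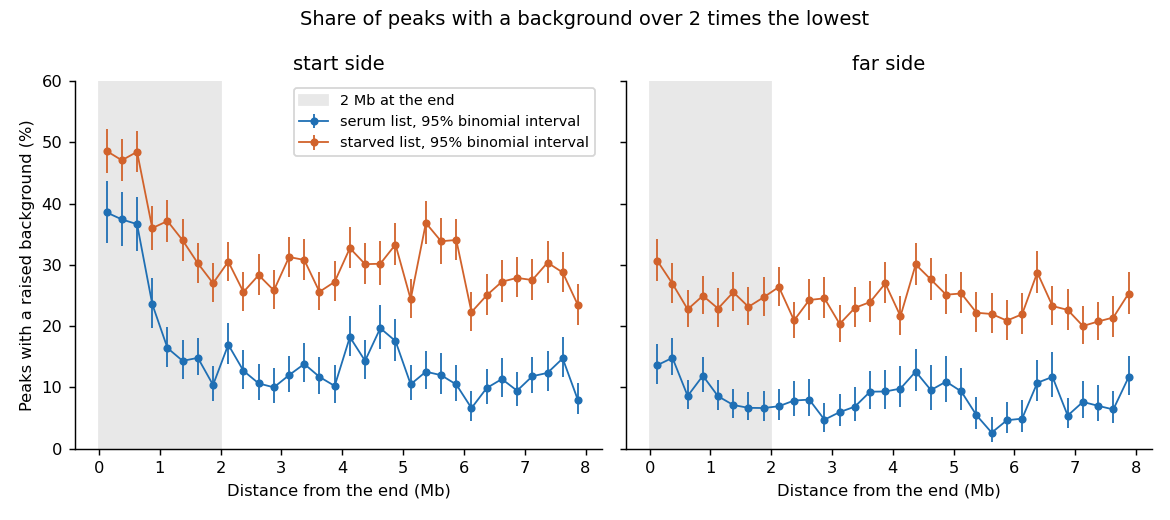
Percent of peaks with a raised background against the distance in Mb from the end, in 250 kb bins pooled over 20 starts (left) or 20 far ends (right), for the serum list (blue) and the starved list (orange), with 95% binomial intervals and grey over the outer 2 Mb. At the starts the share falls within the outer 2 Mb from 38.6% to 10.4% in the serum list and from 48.6% to 27.0% in the starved list, and at the serum far ends from 13.6% to 6.65%.

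The densest 100 kb of any serum end lay in this group. The stretch from 400 to 500 kb of chromosome 7 held 28 serum peaks, all with a raised background and with a median of 9.82 times the lowest, and 4 of them were strong. The starved list had 26 peaks there, 10 of them strong. The densest 100 kb of a starved end lay 900 to 1000 kb from the far end of chromosome 14, with 37 starved and 13 serum peaks. There the median starved background was 1.77 times the lowest and 3 peaks were strong.

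Strong peaks, those with a -log10 q of 5 or more, were more frequent at the serum ends. There were 144 among 7824 members, against 79 in the inward windows, a ratio of 1.82 (1.38 to 2.43). Over all serum peaks of chromosomes 1 to 20, 1.17% were strong. The starts held 88 against 50 (1.76, 1.23 to 2.54) and the far ends 56 against 29 (1.93, 1.21 to 3.14). Against the density of the interior the ratio was 1.57 (1.32 to 1.86). It was 1.73 at the starts (1.38 to 2.14) and 1.38 at the far ends (1.04 to 1.81). At a -log10 q of 10 or more the pooled ratio to the interior was 1.375 (0.989 to 1.87). To the inward windows it was then 2.26 (1.29 to 4.11). At 20 or more, with 7 end peaks, these ratios were 0.831 (0.331 to 1.74) and 1.75 (0.445 to 8.15). Strong peaks were few per end: the median end held 2.5 of them, the start of chromosome 7 held 16, and 23 of 40 ends had more than their inward window while 12 had fewer.

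The background of the strong serum peaks differed by side. Of the 144 strong peaks 114 had a raised background, against 55 of 79 inward, a ratio of 2.07 (1.49 to 2.91). That was 79.2% at the ends (71.6 to 85.5), and in the interior 2116 of 2810 had one, 75.3%. The 30 strong end peaks without one stood against 24 inward (1.25, 0.707 to 2.23). At the starts the raised ones were 77 against 34 (2.27, 1.494 to 3.498) and the others 11 against 16 (0.688, 0.289 to 1.58). At the far ends the raised ones were 37 against 21 (1.76, 1.005 to 3.17) and the others 19 against 8 (2.38, 0.993 to 6.27). By count, the excess at the starts was in peaks with a raised background. At the far ends both kinds were more numerous than inward, those without one with an interval that includes 1. Against the interior of the far side the order was reversed. There the ratio was 1.23 for raised ones (0.858 to 1.70), an interval that includes 1, and 1.84 for the others (1.09 to 2.925). Serum peaks of any strength were split alike at the starts: 885 raised ones against 467 (1.90, 1.69 to 2.12). Those without a raised background were 2892 against 3303 (0.876, 0.833 to 0.921). Whether strong peaks went beyond this was not tested. The part of the control fragments was not tested. With 1 Mb windows the ratio was 1.44 at the starts (0.927 to 2.27) and 1.24 at the far ends (0.709 to 2.19). With 4 Mb windows the ratio was 0.978 (0.810 to 1.18). The stretch from 4 to 8 Mb of the chromosome 9 start, which then counts as inward, held 78 of the 172 strong serum peaks of all starts in that range, 75 of them between 4 and 5 Mb.

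Strong peaks were common everywhere after starvation. The ends held 1551 among 12146 members and the inward windows 1416, a ratio of 1.10 (1.02 to 1.18), and 12.9% of all starved peaks of chromosomes 1 to 20 were strong. The starts held 802 against 762 (1.05, 0.952 to 1.16) and the far ends 749 against 654 (1.15, 1.03 to 1.27). Against the interior the pooled ratio was 1.04 (0.984 to 1.09). By count, the starved excess was in peaks with a raised background, 572 against 381 (1.501), and strong peaks without one numbered 979 against 1035 (0.946, 0.866 to 1.03). Raised starved peaks of any strength numbered 3904 against 3067 (1.273, 1.214 to 1.335).

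Strong starved peaks at the ends also lay more often in runs. Their density was 19.4 per Mb at the ends, 17.7 inward and 18.7 in the interior. The share in runs that density alone gives was not computed. Where neighbouring strong peaks of a list at most 10 kb apart are joined into a run, 696 of 1551 lay in runs, 44.9% (42.4 to 47.4), against 38.5% both inward and in the interior. In the serum list 51 of 144 did, 35.4% (27.6 to 43.8), against 25.3% inward (16.2 to 36.4) and 27.5% in the interior, and these intervals overlap.

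Overlap between the lists was slightly more frequent at the ends. At least 1 base was shared with a starved peak by 1438 of 7824 serum members, 18.4% (17.5 to 19.3), where 15.3% of all serum peaks of chromosomes 1 to 20 did so, 15.9% of the inward and 15.2% of the interior peaks. Of the starved members 1430 of 12146 met a serum peak, 11.8% (11.2 to 12.4), against 10.4% over all starved peaks and 8.88% inward. Denser stretches meet more often, and the share that peak density alone gives was not computed.

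Strong serum peaks were mostly shared, with a lower share at the starts. Of the 144, 118 met a starved peak, 81.9% (74.7 to 87.9), against 90.7% of 2810 in the interior (89.5 to 91.7). At the far ends 55 of 56 did (98.2%, 90.5 to 99.9). At the starts 63 of 88 did (71.6%, 61.0 to 80.7), against 88.0% of the start inward peaks (75.7 to 95.5) and 91.0% in the interior (89.5 to 92.4). Of these 88, 57 of the 77 with a raised background did (74.0%, 62.8 to 83.4), against 94.6% in the interior of the start side. Of those without one 6 of 11 did (54.55%, 23.4 to 83.25), against 79.6% there. In the 4 starts of chromosomes 2, 7, 12 and 16 the share of all strong serum peaks was 29 of 50 (58.0%, 43.2 to 71.8). At the other 16 starts it was 34 of 38 (89.5%, 75.2 to 97.1). Without these 4 windows the share over the other 36 was 94.7% (88.0 to 98.3) and the strong ratio of end to inward windows 1.68 (1.19 to 2.38). At the 16 other starts alone that ratio was 1.41 (0.837 to 2.40), an interval that includes 1. In the inward windows of the 4 starts, 18 of 23 strong serum peaks were shared (78.3%, 56.3 to 92.5), an interval that overlaps that of their end windows. The inward windows of the other 16 starts had 26 of 27 (96.3%, 81.0 to 99.9). The 4 starts were also the ends with the most strong serum peaks. Other overlap was more frequent in these 4 windows than at the other 16 starts. Of all serum peaks 28.4% met a starved peak there (25.4 to 31.5), against 18.0% (16.6 to 19.5). Of all starved peaks 17.7% met a serum peak (15.8 to 19.7), against 10.9% (9.985 to 11.8). Of strong starved peaks 34.1% did (27.9 to 40.7), against 23.3% (19.9 to 27.0).

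The 26 strong serum peaks that met no starved peak lay almost wholly at starts, 25 of them, and 21 lay in the 4 windows (7, 5, 5 and 4 on chromosomes 2, 7, 12 and 16). Of the 26, 21 had a raised background, with a median of 5.85 times the lowest. Among all 144 strong serum end peaks 114 had one, with a median of 3.62 times the lowest. At the starts it was 20 of 25, against 77 of all 88 strong ones. The median background at the starts was 5.91 times the lowest for the 25 and 4.34 times for all 88. Having a raised background thus did not set the 26 apart, but their median background was higher. The distance to the nearest starved peak had a median of 1.22 kb and ran from 0.141 to 7.49 kb. These 4 windows held 183.8 starved peaks per Mb, and the distance that such a density alone gives was not computed. The highest of them by q-value lay on chromosome 7 from 479654 to 480338, with a pileup of 67, a fold enrichment of 2.92 and a background of 14.8 times the lowest. Its nearest starved peak was 0.227 kb away and had a background of 29.1 times the lowest of its own list.

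**Figure D4:**
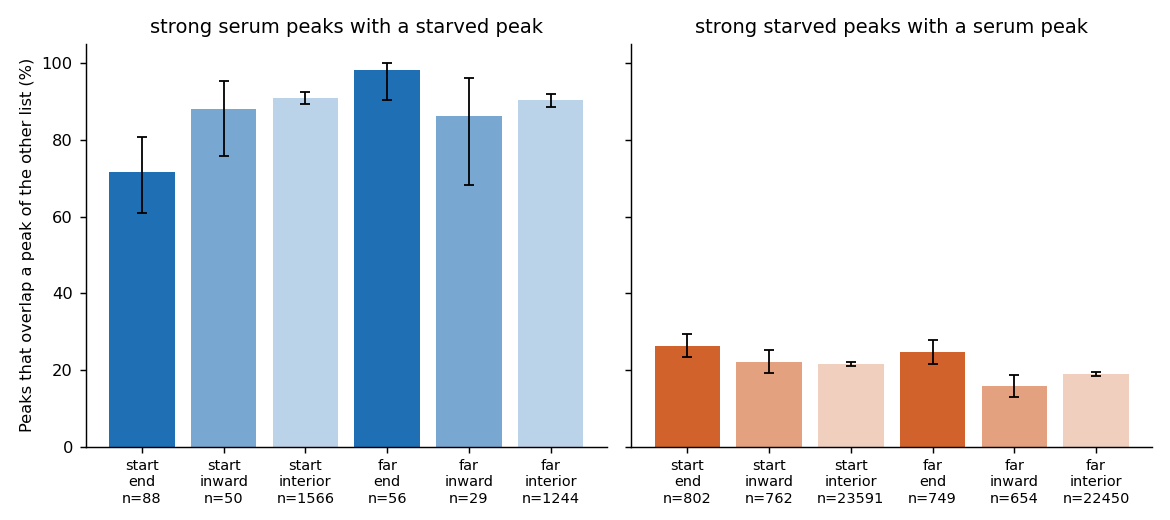
Percent of strong peaks that overlap a peak of the other list by at least 1 base, serum peaks on the left and starved peaks on the right, for end windows, inward windows and interior of each side, with the number of peaks under each bar and 95% binomial intervals. Serum far ends stand at 98.2% and serum starts at 71.6%, and the starved bars lie between 15.7% and 26.3%.

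Among strong starved peaks 395 of 1551 met a serum peak at the ends (25.5%). The share was 26.3% at the starts (23.3 to 29.5) against 22.0% inward (19.1 to 25.2), and 24.6% at the far ends (21.5 to 27.8) against 15.7% inward (13.0 to 18.8). The counting intervals of end and inward windows were apart at the far ends and overlapped at the starts. In the interior the share was 20.3% pooled (19.9 to 20.6), 21.55% on the start side and 18.9% on the far side. The far inward share thus lay below the interior one. Strong starved peaks with a raised background met a serum peak in 43.5% at the ends and 44.3% in the interior. Without a raised background the shares were 14.9% and 11.85%.

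The highest fold enrichments of both lists at any end came from a single stretch of chromosome 1, about 594 kb from its far end. In the serum list 5 strong peaks lay between 282141556 and 282152921, with folds of 5.38 to 12.2, and held the ranks 1, 2, 3 and 5 among the 7824 members. The starved list had 12 strong peaks between 282140566 and 282155728, with folds of 5.26 to 33.7, which held the ranks 1, 3, 4 and 5 among the 12146. All 5 strong serum peaks met a starved peak. Their background was 1.083 to 2.17 times the lowest, with 1 of the 5 raised. Among the 12 starved peaks the background ran from 1.155 to 3.90 times the lowest of that list.

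The 4 highest serum peaks of the cluster each overlapped a starved peak. The serum peak from 282142889 to 282143353 had a fold of 12.2 and a pileup of 31, and the starved peak from 282142950 to 282143357 a fold of 27.4 and a pileup of 37. From 282147791 to 282148193 the serum fold was 11.8 with a pileup of 30, and the starved peak from 282147817 to 282148206 had 33.7 and 37. From 282141556 to 282142243 the serum fold was 10.8 with a pileup of 28, beside a starved peak from 282141848 to 282142545 with 27.9 and 31. From 282145320 to 282146216 it was 9.64 with a pileup of 40, beside one from 282145333 to 282146236 with 26.4 and 30. Neither pileups nor folds of a pair are on 1 scale, so the pairs show shared positions and not a difference in signal.

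**Figure D5:**
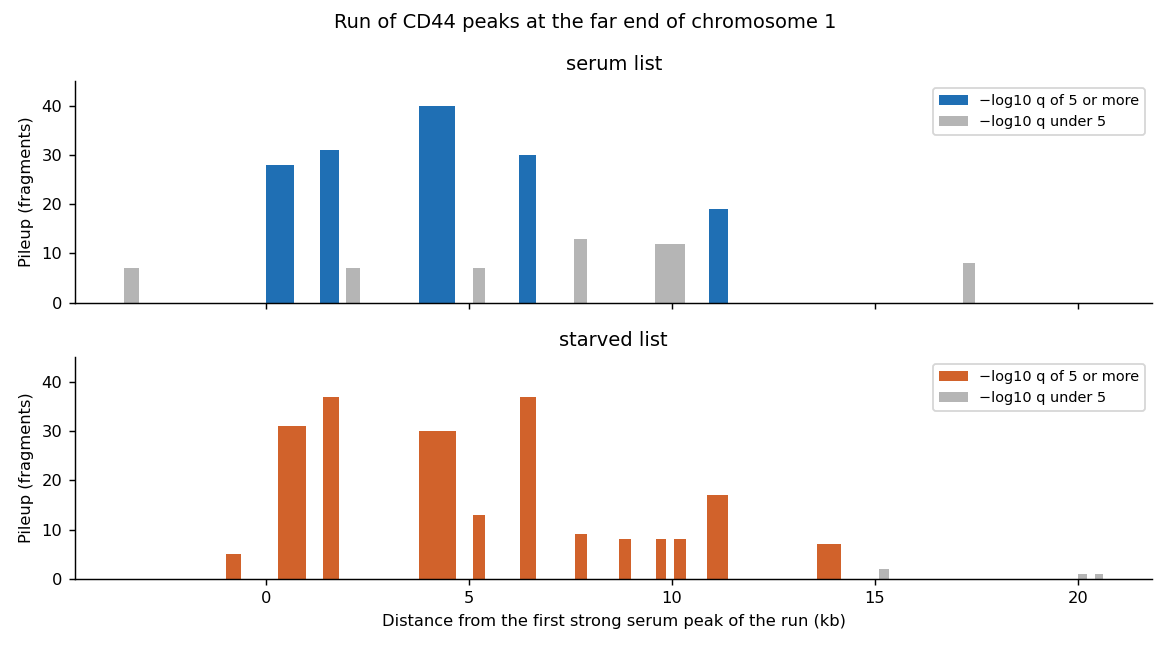
Pileup in fragments of each listed peak in the chromosome 1 cluster against the distance in kb from its first strong serum peak, serum list above and starved list below, each bar as wide as its peak, coloured for a -log10 q of 5 or more and grey below it. The 4 highest serum bars, from 28 to 40 fragments, sit over starved bars of 30 to 37.

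The fourth of the serum folds lay on chromosome 6 from 146306407 to 146306771, 1682 kb from the far end, with a fold of 10.8 and a pileup of 26 at the lowest background. It met a starved peak from 146306352 to 146306791 with a fold of 17.2 and a pileup of 18. The second of the starved folds, also the highest starved pileup at any end, lay on chromosome 8 from 132691119 to 132691780 with 28.1 and 38. The serum peak there, from 132691284 to 132691786, had a fold of 7.63 and a pileup of 73 at 5.79 times the lowest background. The 5 highest folds of each list thus came from 2 places per list, both at far ends and shared. The sixth did not follow: in the serum list it lay at the start of chromosome 4 (8.31-fold), and in the starved list at the start of chromosome 14 from 1219032 to 1219335 (26.2-fold), where no serum peak met it. These sixth peaks were named after their values were seen.

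The remaining peaks named by size went other ways. The longest serum member, 3183 bases on chromosome 20 from 1167758 to 1170940, had a fold of 5.27 and a pileup of 13, missed the strong limit with a -log10 q of 4.89 and met no starved peak. The highest serum pileup, 215 fragments on chromosome 12 from 1511969 to 1512447, came with a fold of only 1.77, since its background was 80.7 times the lowest. The starved peak there, from 1511964 to 1512590, had a pileup of 28, a fold of 3.76 and a background of 67.4 times the lowest. The longest starved member, 6689 bases on chromosome 19 from 62107871 to 62114559, lay 150.1 kb from the far end with a fold of 8.91 and met 4 serum peaks. The highest serum pileup thus lay at a start on a high background, and the 5 highest serum folds at 2 places of far ends.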

How the data were processed

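The data are the peak lists that the authors deposited, 1 per condition, each from a CD44 immunoprecipitation and its input. The submitters' processing notes name the build Rnor_6.0 and 3 tools: MACS2 2.1.1, STAR 2.5.3a and FastQC. Options, duplicate handling and scaling are not given in the sources used. Per the file headers, each deposited row holds a fold enrichment (the ratio of a peak's height to its background), a p-value, its FDR (called q-value here) and a pileup signal. These values are the authors' own and were used only to describe or filter peaks within a list. Library totals were not used here, so the depth is known only through pileup and background.

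The background was computed as (pileup + 1) / fold - 1. A Poisson tail with this background returned every deposited p-value (100%) to within 0.05 log10 units. Ratios of peak counts carry an exact interval from the binomial split of their sum, shares a Clopper-Pearson interval and densities an exact Poisson interval. Overlaps were found with bedtools 2.31.1, other values with Python 3.11.15, numpy 2.4.6, pandas 2.3.3 and scipy 1.17.1. The placing of peaks in windows, the interval of count ratios and the overlap search were tested on simulated data. The other calculations were not. The simulated peaks did not depend on their neighbours, so intervals for peaks that do were not tested.

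The regions and limits were chosen with earlier results of these data known. Named by rule were, per list, the 5 members with the highest fold, the longest, the one with the highest pileup, the 3 ends with most and fewest peaks and with the highest and lowest ratios, and the densest 100 kb. The split into starts and far ends, the interior, the runs of strong peaks and the 4 starts treated apart were chosen after seeing the data. Genes were not assigned and sequences not read, since no Rnor_6.0 genome or annotation was used here.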

Additional observations from a re-analysis of the deposited data

Results flagged for a closer look

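In several comparisons the serum and starved lists lay on opposite sides of a ratio of 1 between end and inward windows. None of these differences between lists was tested, since each condition has 1 precipitated library. Among peaks with a q-value of up to 0.05 the ratio at the starts was 1.13 for serum and 0.986 for starved peaks. Among peaks with a -log10 q of 10 or more at the starts it was 2.56 and 0.920. For strong peaks without a raised background, over both kinds of end, it was 1.25 and 0.946, and for all peaks without one 1.09 and 0.950.

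Single ends also differed in direction. The serum ratio was above 1 and the starved ratio below it at the far ends of chromosome 2 (1.39 and 0.965), chromosome 7 (1.74 and 0.944), chromosome 11 (2.48 and 0.959) and chromosome 15 (1.83 and 0.954). The reverse held at the starts of chromosome 1 (0.690 and 1.20), chromosome 5 (0.937 and 1.17), chromosome 8 (0.9004 and 1.03), chromosome 16 (0.675 and 1.16) and chromosome 19 (0.415 and 1.10), and at the far ends of chromosome 16 (0.853 and 1.02) and chromosome 18 (0.898 and 1.04). Of these 11 ends, the start of chromosome 1 was the one where the counting intervals of both lists left out 1. There the serum share of peaks with a raised background was 27.8% against 3.93% inward and the starved share 36.4% against 11.5%, and their part in the difference was not tested.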

How the results depend on the processing

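No paired analysis was possible because no result comes from a test between samples and each precipitation was done on 1 library per condition. Values are ratios of end to inward windows, with both kinds of end, starts and far ends given in that order where all moved, and the cause of a change was not tested unless stated. For all serum peaks the ratios were 0.977, 0.876 and 1.081 with 1 Mb windows, 1.29, 1.13 and 1.51 at a q-value of up to 0.05, and 0.984, 0.916 and 1.06 against the interior. Without the peaks of raised background they were 1.09 pooled and 0.876 at the starts, and at the far ends 1.30 with 4 Mb windows and 1.78 as the median over ends. For strong serum peaks they were 1.36 pooled with 1 Mb windows, 0.978 pooled and 0.802 at the starts with 4 Mb windows, 1.25 pooled and 0.688 at the starts without a raised background, 2.56 at the starts with a -log10 q of 10, and 1 pooled and 0.75 at the far ends as the median over ends. That median leaves out ends with no strong inward peak. For all starved peaks they were 1.079 pooled and 1.079 at the starts with 4 Mb windows, 0.950 and 0.856 without a raised background, 1.05 as the median over starts, 1.06 at the starts against the interior and 1.014 at the far ends with 1 Mb windows. For strong starved peaks they were 0.946 pooled and 0.857 at the starts likewise, 0.920 at the starts with a -log10 q of 10, and at the far ends 1.02 with 1 Mb windows and 1.03 against the interior. The share with a raised background was 4.87% and 4.95% in the serum and starved ends at a limit of 5 times the lowest, 22.2% and 36.02% with 1 Mb windows, and 13.5% and 29.2% with 4 Mb windows. The shared percent was 6.93% and 4.46% at an overlap of 50% of both peaks, 31.0% and 21.8% within 500 bp, 26.2% and 7.09% at a q-value of up to 0.05 in both lists, 63.2% and 5.74% for strong peaks of both, and 20.4% and 13.0% with 1 Mb windows. Leaving out each chromosome in turn gave serum ratios of 1.14 to 1.20 pooled, 0.964 to 1.07 at the starts and 1.33 to 1.45 at the far ends, and starved ones of 1.03 to 1.05, 0.994 to 1.03 and 1.06 to 1.076. For strong peaks it gave 1.66 to 1.97, 1.53 to 1.95 and 1.72 to 2.21 in the serum list and 1.07 to 1.12, 1.03 to 1.09 and 1.11 to 1.17 in the starved list. Raised shares ran from 14.5% to 17.1% and from 30.5% to 32.8%, and shared ones from 18.0% to 18.8% and from 11.4% to 12.1%. The other 63 values at other settings stayed inside the counting interval of the reported ones, but some had intervals that include 1 where the reported one does not: strong serum peaks with 1 Mb windows (1.44 at the starts, 1.24 at the far ends), at the far ends without a raised background (2.38) or with a -log10 q of 10 (2.0), and at the starts without chromosomes 2, 7, 12 and 16 (1.41); all starved peaks with 1 Mb windows (1.02) or at a q-value of up to 0.05 (1.03); and strong starved peaks pooled with 1 Mb windows (1.07), with a -log10 q of 10 (1.04), against the interior (1.04) and without those 4 starts (1.08), and at the far ends without a raised background (1.04) or with a -log10 q of 10 (1.18). In the starved list 40.01% of end peaks and 40.8% of interior peaks had the lowest pileup of 1 fragment.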

Other observations

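The X chromosome was outside the numbered chromosomes, and its ends held fewer serum peaks than the sequence next to them. Its start held 218 serum peaks against 338 in the next 2 Mb (0.645, 0.542 to 0.767) and its far end 267 against 365 (0.732, 0.622 to 0.859). In the starved list the start held 305 against 321 (0.950, 0.810 to 1.12) and the far end 256 against 365 (0.701, 0.595 to 0.825). Serum peaks with a raised background made up 9.17% at the X start and 3.37% at its far end. A count of 9 strong serum peaks lay at the X start, against 3 in the next 2 Mb, and 1 each lay at the far end and next to it.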
